A study of Mus musculus with 12 samples.

Results

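The genes examined here were 9 mouse genes that make microRNAs or carry out silencing with them: Dgcr8, Xpo5, Dicer1, Tarbp2, Prkra, Ago1, Ago2, Tnrc6a and Mov10. Every probe of the array that carries one of these names, or an older or newer symbol for it, was taken, and each probe was kept apart. This gave 23 probes of the 41174 on the array, for 9 of its 19505 genes with a symbol, and 21 of them were bright enough to be tested. The 2 Argonaute genes appear on the array as Eif2c1 (Ago1) and Eif2c2 (Ago2), and 1 Ago2 probe appears under the older clone name 2310051F07Rik. The 2 untested probes, 1 of Dgcr8 and 1 of Prkra, were not well above background in either channel of any array.

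MicroRNAs are cut out of long transcripts in steps. In the nucleus the RNA-binding protein Dgcr8 and the nuclease Drosha release a hairpin, which exportin-5 (Xpo5) carries to the cytoplasm. There Dicer1, helped by its double-stranded-RNA-binding partners Tarbp2 and Prkra, cuts the hairpin to a short duplex, and 1 strand is loaded into an Argonaute protein. The loaded Argonaute binds messages by base pairing, the scaffold protein Tnrc6a (GW182) brings in the enzymes that remove the poly(A) tail and the cap, and the helicase Mov10 is found with the Argonaute complex. Embryonic stem (ES) cells without Dicer lack nearly all microRNAs and can still be kept in culture.

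Expression was measured on 12 Agilent 2-colour arrays, on which 2 RNAs compete for each spot and their ratio is read. The RNAs were wild-type mouse ES cells, the Dicer1-null ES cell cultures 27G5 and 27H10, each culture labelled as overexpressing Dnmt1, and each labelled as overexpressing Dnmt3a and Dnmt3b, the enzymes that methylate DNA. Both derived conditions are therefore themselves Dicer-null, all cells were grown on gelatin with leukemia inhibitory factor, and all cells received no further treatment. Each pairing (Dicer-null over wild type, Dnmt1-labelled over Dicer-null, and Dnmt3a,3b-labelled over Dicer-null, in each clone) was hybridised a second time with the dyes exchanged, which left 6 ratios from 7 named RNAs. Values are log2 ratios, so that 1 is a doubling, given as the mean ± SD over the 2 clones (n = 2) with the adjusted p of limma over 28818 probes, and a probe is called at an adjusted p under 0.05. Where 4 array values are given, the 27G5 arrays come first, and in each clone the array with the first-named RNA in the red dye precedes the one with it in the green dye. The labels give the wild-type cells 1 name and name no separate cultures of a clone. They do not say whether RNAs of 1 name were 1 extract. So p measures only the spread between these samples, which may be technical, and the number of arrays limits the precision.

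Across arrays, 62.2% to 69.1% of probes were well above background, and RNA Integrity Numbers lay between 8 and 9.5. The 9 pluripotency markers were well above background in every channel, the only one of 4 marker lists for which this held in all 4 kinds of RNA. The Dnmt1 probe did not pass in the cells labelled for it (0.27 ± 0.23, adjusted p = 0.109), and in the cells labelled for Dnmt3a and Dnmt3b the Dnmt3b probe fell, at -1.04 ± 0.59 (adjusted p = 0.0306). None of the 3 Dnmt3a probes passed there, at -1.03, -0.72 and 0.20. The Dnmt3b probe fell in Dnmt1-labelled cells too, at -1.06 ± 0.40 (limma adjusted p = 0.0283). So did the Dnmt3a probe A_52_P169048, at -1.34 ± 0.58 (limma adjusted p = 0.0373), while the other Dnmt3a probes did not pass in those cells. These probes thus did not show the labelled overexpression, and both conditions are named here by their labels. The dye-swapped arrays of a pair correlated across probes at r = 0.676 to 0.91, but at 0.378 for the Dnmt3a,3b pair of clone 27G5. The 4 arrays with wild-type RNA were on 1 slide, and the derived conditions of each clone were on a slide of their own, so that slide and clone cannot be told apart for the derived conditions. With an estimated correlation of 0.0955 within slides, the slide as a random block called 14, 4 and 4 member probes.

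The Dicer1 probes are shown because they gave unlike answers in cells labelled as lacking the gene. Both lie on the minus strand of chromosome 12 (build mm7), and each is 60 bases long, as printed in the deposited files, 5′ to 3′ in the sense of the transcript.
Dicer1 A_51_P483059, chr12:102216485-102216544: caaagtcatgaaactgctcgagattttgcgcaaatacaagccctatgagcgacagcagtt
Dicer1 A_51_P333060, chr12:102186776-102188847: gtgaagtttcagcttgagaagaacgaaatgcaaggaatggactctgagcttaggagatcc
The first probe matches 60 unbroken bases of the genome and lies farther upstream in the transcript. The second covers 2072 bases of the genome with its 60, so its bases are contiguous in spliced RNA and not in the genome. Which stretch of the gene is missing in these cells is not given in the labels.

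At the downstream Dicer1 probe, the signal in Dicer-null cells fell to near background. The 4 arrays gave -4.33, -3.93, -4.06 and -3.98, a mean of -4.07 ± 0.08 (adjusted p = 3.05e-05), or 16.8-fold lower. Every array showed the loss and the clones lay close together. On these arrays the log2 signal was 10.83 to 10.93 in wild-type and 6.53 to 6.997 in Dicer-null cells, still well above background by the scanner's flag on 4 of 4 arrays. On the other 8 arrays, which held no wild-type RNA, the Dicer-null channel read 6.04 to 6.28 and was well above background on 0 of 8. A ratio of 2 channels at background gives no measure of change, and in those comparisons the probe read -0.04 ± 0.03 and -0.07 ± 0.01. The scanner's own log ratio put the loss over wild type at -5.42.

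At the upstream Dicer1 probe, RNA was still plainly present in the Dicer-null cells. The 4 arrays over wild type gave -0.72, -0.28, -0.60 and -0.52, a mean of -0.53 ± 0.04 (adjusted p = 0.00386), or 1.45-fold lower. All 4 arrays were below 0, and every channel was well above background. The call was lost with the RNAs shared between ratios modelled, and on the 27G5 ratio alone (adjusted p range over all alternatives 0.00355 to 0.0835). The same probe was lower again in both derived conditions. Dnmt1-labelled cells gave -0.69, -0.45, -0.93 and -0.45 against their Dicer-null parents, a mean of -0.63 ± 0.09 (adjusted p = 0.00625). Dnmt3a,3b-labelled cells gave -1.41, -0.25, -0.94 and -0.48, a mean of -0.77 ± 0.08 (adjusted p = 0.0043). This was the only member probe whose call over Dicer-null cells held in the Dnmt3a,3b comparison with shared RNAs modelled (adjusted p = 0.0465), though it was lost when either clone was left out. In the Dnmt1 comparison it was lost with shared RNAs modelled (adjusted p = 0.0601). Added to the parents' own ratio, the Dnmt1-labelled cells stood at -1.07 (27G5) and -1.25 (27H10) relative to wild type, and the Dnmt3a,3b-labelled cells at -1.33 and -1.27. These sums reuse the Dicer-null RNAs and were not tested as such.

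**Figure D1:**
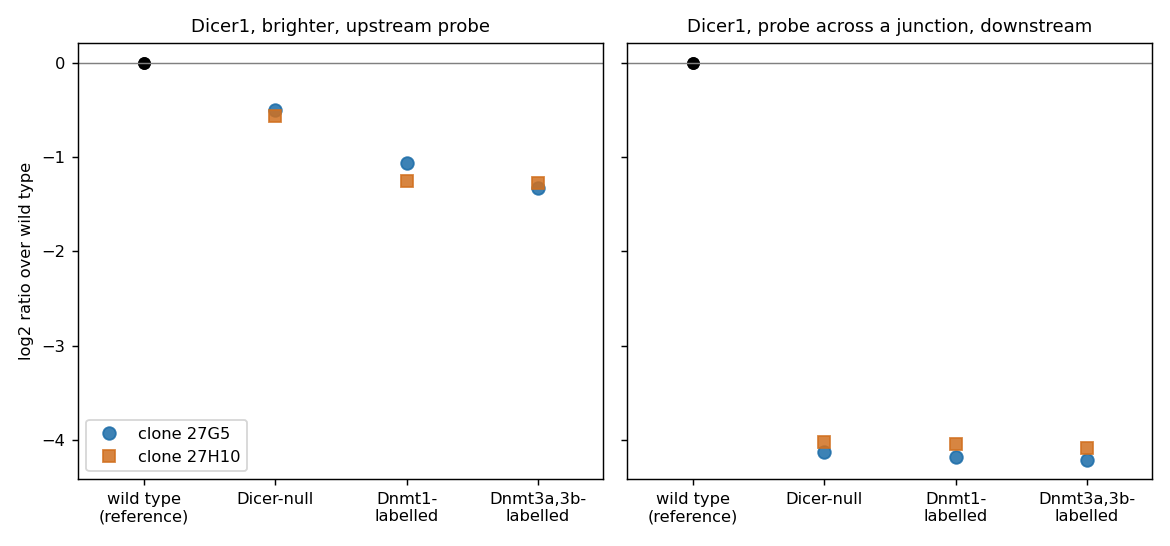
Log2 ratio over wild type at the upstream (left) and downstream (right) Dicer1 probe for each RNA, 1 point per clone; the values of the derived conditions are sums of 2 measured ratios, and wild type is the reference at 0. The upstream probe steps down from -0.53 to -1.07 or lower, while the downstream probe stays near -4.07, where the derived conditions and their parents were not well above background on the arrays they share.

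Of the 21 member probes tested, 15 were called in Dicer-null over wild-type cells, 11 higher and 4 lower. Over all probes tested, 39.8% were called, 20% higher and 19.8% lower, beside 71.4% of the member probes. The 15 calls touched 7 of the 9 genes, where any called probe of a gene counts. That count was not made over all genes. It favours genes with several probes, such as Xpo5, whose 2 called probes went opposite ways. By the brightest probe alone, 6 of 9 members were called, beside 43.9% of all genes. All 15 called probes had the same sign on all 4 arrays, a count not made over all probes. The median log2 ratio of the member probes was 0.33, beside 0.01 over all probes. Among the members, higher probes were those of Ago1, Tnrc6a and Mov10, 3 of 4 of Ago2, and 1 of Xpo5. The brightest Ago2 probe was at -0.12. Lower probes were the 2 of Dicer1, 1 of Xpo5 and 1 of Prkra. Among further genes, read by their brightest probe, 0 of 21 of Argonautes and loading rose and 3 fell. Of 18 of Tnrc6a paralogs, P-bodies and decapping 3 rose and 5 fell, and of 21 of deadenylation 6 rose and 4 fell. With the shared RNAs modelled, 5 of the 15 calls stayed: the downstream Dicer1 probe, Mov10, 2 of Ago1 and 1 of Tnrc6a. The fibroblast markers moved with this comparison: 8 of 9 fell and Dcn rose, with a summed signal of 45900 to 67200 in wild-type and 4970 to 6190 in Dicer-null channels on all their arrays, and 9 of 9 and 6 to 7 of 9 above background. The other marker lists moved too. Of 9 pluripotency markers 7 rose and none (0) fell (summed signal 169000 to 176000 in wild-type and 203000 to 330000 in Dicer-null channels), of 9 trophoblast markers 1 rose and 5 fell (89700 to 211000 and 31300 to 64500), and of 8 primitive endoderm markers none (0) rose and 4 fell (11400 to 13500 and 4540 to 5790). In bulk RNA, fewer cells of a type and less RNA per cell cannot be told apart. The markers' part in the members' ratios was not tested.

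**Figure D2:**
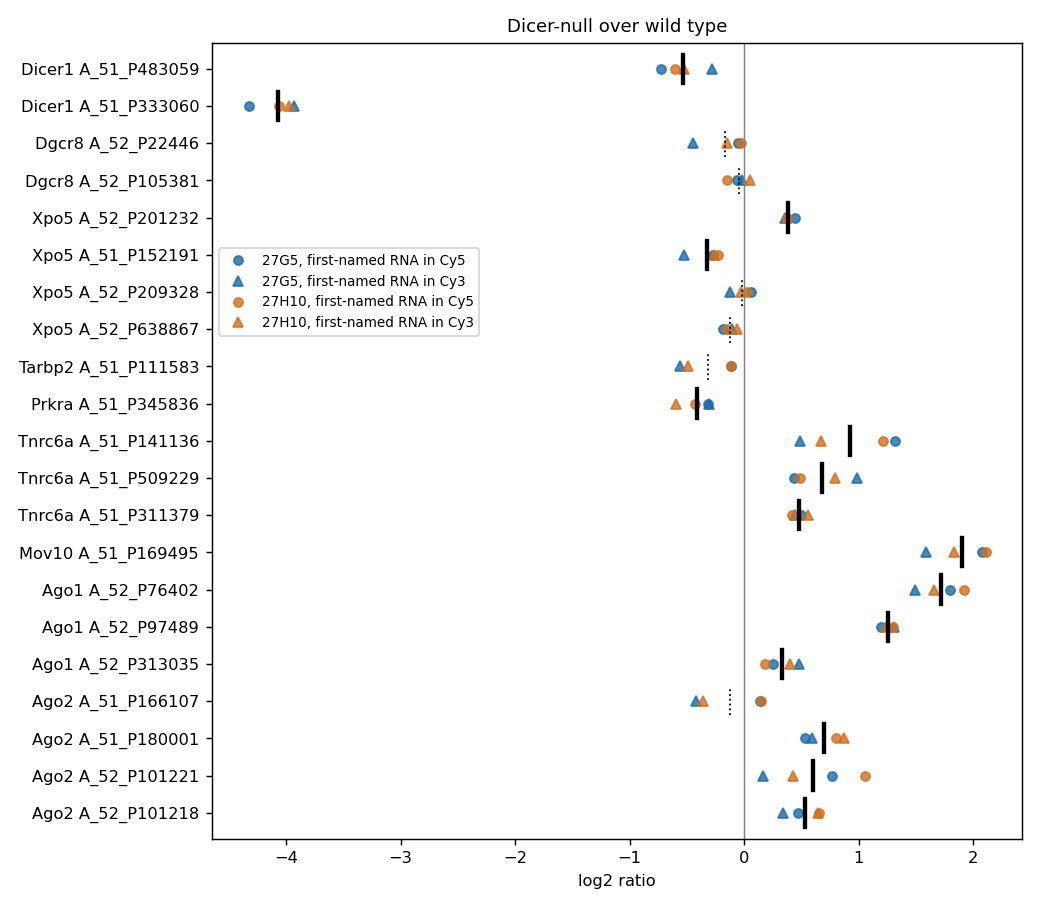
Log2 ratio of Dicer-null over wild-type cells for the 21 member probes; each symbol is 1 array, colours are clones, shapes are dye orientations, and bars are means (thick where called, dotted where not). The Argonaute, Tnrc6a and Mov10 probes lie mostly to the right of 0, up to 1.90, and the downstream Dicer1 probe lies alone at -4.07.

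The nuclear and export genes had ratios over wild type between -0.33 and 0.39. Dgcr8, which grips the primary transcript for Drosha, gave -0.05, -0.45, -0.03 and -0.15 at its bright probe (-0.17 ± 0.11, adjusted p = 0.165). Its second tested probe was dim, well above background in 1 of 4 Dicer-null channels, at -0.04 ± 0.01. Xpo5, the export receptor, had 4 tested probes that disagreed. The brightest, A_52_P201232, rose by 0.39 ± 0.02 (adjusted p = 0.016), with 4 arrays between 0.36 and 0.44. The next, A_51_P152191, fell by -0.33 ± 0.11 (adjusted p = 0.039), while the remaining 2 gave -0.02 ± 0.02 and -0.12 ± 0.03 and did not pass. The rise lost its call under 4 of 12 alternatives and the fall under 9 of 12. The brightest Xpo5 probe is shown because it was also higher in a derived condition.
Xpo5 A_52_P201232, chr17:44371210-44371269, plus strand: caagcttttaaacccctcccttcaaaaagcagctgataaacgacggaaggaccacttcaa

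The partners of Dicer, Prkra and Tarbp2, both lay near the threshold. Prkra (PACT) gave -0.32, -0.31, -0.43 and -0.60, a mean of -0.41 ± 0.14 (adjusted p = 0.0412). All 4 arrays were below 0, but the call was lost under 7 of 12 alternatives. Tarbp2 (TRBP) gave -0.11, -0.56, -0.11 and -0.49, a mean of -0.32 ± 0.02 that did not pass (adjusted p = 0.0523). It passed under 3 of 12 alternatives: median centring (-0.41, adjusted p = 0.0189), the block by clone (0.0469) and the block by array number (0.0323). With median centring Prkra did not pass (adjusted p = 0.0750), so that which of these 2 genes was called depended on the scaling. The Tarbp2 arrays split by dye: the 2 with Dicer-null RNA in green were lower than the 2 with it in red, in both clones.

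Ago1, an Argonaute that binds microRNAs, was higher at all 3 probes. A_52_P76402 gave 1.79, 1.49, 1.92 and 1.66, a mean of 1.72 ± 0.10 (adjusted p = 0.000588), or 3.29-fold. A_52_P97489 gave 1.19, 1.30, 1.30 and 1.24, a mean of 1.26 ± 0.01 (adjusted p = 0.000497). The third probe, A_52_P313035, which is the one tied to a RefSeq transcript of the gene, gave only 0.33 ± 0.05 (adjusted p = 0.0146). It was dim, with wild-type signal well above background on 2 of 4 arrays, and the scanner's log ratio put it at 1.18. Its call was lost when either clone was left out. The size of its ratio therefore depends on the processing. Its sequence is given since it is the Ago1 probe tied to a RefSeq transcript.
Ago1 A_52_P313035, chr4:125885881-125885940, minus strand: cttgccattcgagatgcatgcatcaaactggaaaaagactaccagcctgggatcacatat

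Ago2, the Argonaute that can itself cut a paired message, was higher at 3 of 4 probes. A_51_P180001 gave 0.53, 0.59, 0.80 and 0.87, a mean of 0.70 ± 0.20 (adjusted p = 0.00353). The other 2 called probes gave 0.60 ± 0.19 (adjusted p = 0.00557) and 0.53 ± 0.17 (adjusted p = 0.00795). At all 3 the 27H10 ratio was above the 27G5 ratio, and all 3 calls were lost on the 27G5 ratio alone. The probe named 2310051F07Rik did not follow them: it gave 0.14, -0.42, 0.15 and -0.36, a mean of -0.12 ± 0.02 (adjusted p = 0.537), with the sign following the dye. That probe, the brightest of the 4 (mean log2 signal 13.72), is tied to Ago2 only through a synonym. A_51_P180001, under the name Eif2c2, and the Ago1 probes A_52_P76402 and A_52_P97489, under Eif2c1, are named through a synonym too.

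Tnrc6a, the scaffold between Argonaute and the decay enzymes, rose at all 3 of its probes. A_51_P141136 gave 1.32, 0.48, 1.21 and 0.67, a mean of 0.92 ± 0.03 (adjusted p = 0.00152), and kept its call under all 12 alternatives. A_51_P509229 gave 0.44, 0.98, 0.49 and 0.79, a mean of 0.68 ± 0.05 (adjusted p = 0.0137), with the dye effect in the opposite sense. A_51_P311379 gave 0.48 ± 0.01 (adjusted p = 0.00397), with all 4 arrays between 0.42 and 0.56, and 0.99 by the scanner's log ratio. The calls at these last 2 probes were lost when either clone was left out.

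Mov10, the helicase, had the largest rise of the member probes. Its single probe (A_51_P169495, chr3:104587953-104588012, minus strand) gave 2.08, 1.59, 2.11 and 1.83, a mean of 1.90 ± 0.09 (adjusted p = 0.00108), or 3.73-fold. Arrays and clones all lay far above 0, and the call held under all 12 alternatives, with adjusted p from 8.69e-06 to 0.0404.

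In Dnmt1-labelled over Dicer-null cells, 4 of 21 member probes (19%) were called, 1 higher and 3 lower, beside 22.8% of all probes. In Dnmt3a,3b-labelled over Dicer-null cells the count was also 4 of 21, 2 higher and 2 lower, beside 22% of all probes. Both shares lie near the background. The 2 comparisons share the Dicer-null RNA of each clone, so like values in them are not separate observations, and a value of that RNA also enters the ratio over wild type with the opposite sign. Trophoblast markers moved with both: 6 and 7 of 9 rose and none (0) fell, with a summed signal of 31300 to 64500 in Dicer-null channels, 107000 to 273000 in Dnmt1-labelled, 104000 to 216000 in Dnmt3a,3b-labelled and 89700 to 211000 in wild-type channels. The ranges of both derived conditions thus overlapped that of wild type and lay above that of their parents. Derived and wild-type RNAs met on no array, however, and single markers differed. Cdx2 was at -2.10 in Dicer-null over wild-type cells and at 0.53 and 0.80 in the derived conditions over their parents. Gata3 was at -0.99, then 3.01 and 2.26, and Tfap2c at -0.15, then 1.75 and 1.62. In the same order, Krt7 was at -2.35, 2.81 and 2.72, and Krt8 at -1.29, 1.23 and 1.11. Krt18 was at -2.14, 2.13 and 1.95, and Prl3d1 at -0.085, 2.49 and 2.35. Eomes was at -0.23, 0.09 and 0.03, and Elf5 at 0.79, 0.22 and 0.105. Tfap2c and Prl3d1 did not pass over wild type, nor Cdx2 in the Dnmt1 comparison. Eomes passed in no comparison, and Elf5 only over wild type. The markers' part in the members' ratios was not tested.

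**Figure D3:**
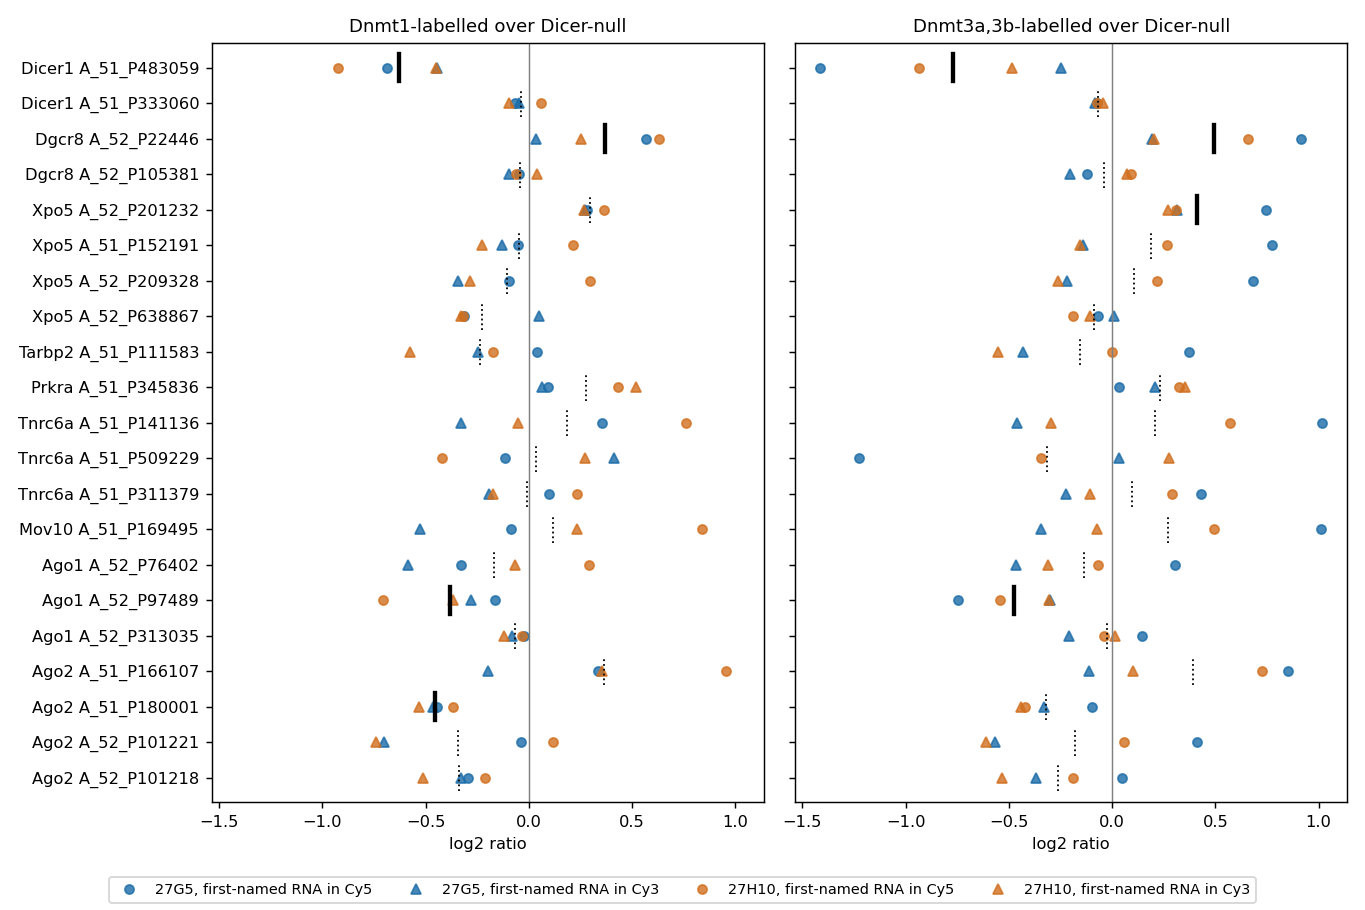
Log2 ratio of the Dnmt1-labelled (left) and Dnmt3a,3b-labelled (right) cells over their Dicer-null parents for the 21 member probes; symbols are arrays, colours clones, shapes dye orientations, and bars means (thick where called, dotted where not). Means run from -0.77 to 0.49, and circles and triangles of 1 probe are often apart, most of all on the right.

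Dgcr8 rose in both derived conditions at its bright probe. Dnmt1-labelled cells gave 0.57, 0.03, 0.63 and 0.25, a mean of 0.37 ± 0.10 (adjusted p = 0.0312). Dnmt3a,3b-labelled cells gave 0.92, 0.19, 0.66 and 0.20, a mean of 0.49 ± 0.09 (adjusted p = 0.0146). All 8 values were above 0, with the larger ones on the arrays that carried the derived RNA in red. Both calls were lost with shared RNAs modelled, and the Dnmt3a,3b call without either clone, while the Dnmt1 call was lost also by the scanner's ratio, by the authors' table, with median centring and without clone 27H10 (5 of 12 alternatives in all). Of the dim Dgcr8 probe, neither mean passed (-0.04 in both).

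The brightest Xpo5 probe gave 0.28, 0.27, 0.36 and 0.27 in Dnmt1-labelled cells, a mean of 0.30 ± 0.03 that did not pass (adjusted p = 0.0568). In Dnmt3a,3b-labelled cells it gave 0.75, 0.31, 0.31 and 0.27 and rose by 0.41 ± 0.17 (adjusted p = 0.0243), with 1 array far above the others and the call lost under 5 of 13 alternatives. The other 3 Xpo5 probes did not pass in either comparison, at -0.23 to 0.19.

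Of the Argonautes, the Ago1 probe A_52_P97489 fell in both conditions. Dnmt1-labelled cells gave -0.16, -0.28, -0.71 and -0.37, a mean of -0.38 ± 0.22 (adjusted p = 0.0409); 5 of 12 alternatives ended the call, including the fit without clone 27H10. Dnmt3a,3b-labelled cells gave -0.74, -0.30, -0.54 and -0.31, a mean of -0.47 ± 0.07 (adjusted p = 0.0232, lost without either clone). The other 2 Ago1 probes did not pass, at -0.17 to -0.02. The Ago2 probe A_51_P180001 fell in Dnmt1-labelled cells, where its 4 arrays gave -0.45, -0.47, -0.37 and -0.53, a mean of -0.45 ± 0.0037 (adjusted p = 0.0277, lost without either clone). In Dnmt3a,3b-labelled cells it was at -0.32 ± 0.15 (adjusted p = 0.0694). The 2 further Eif2c2 probes lay between -0.34 and -0.18 and the probe named 2310051F07Rik at 0.36 and 0.39, and none of these passed.

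Prkra gave 0.28 ± 0.28 and 0.23 ± 0.16, above 0 on all 8 arrays, and Tarbp2 gave -0.24 ± 0.19 and -0.15 ± 0.17; neither gene passed in either comparison. The 3 Tnrc6a probes also stayed short of the threshold, at 0.18, 0.04 and -0.01 in Dnmt1-labelled and 0.21, -0.32 and 0.10 in Dnmt3a,3b-labelled cells. Mov10 went opposite ways in the clones of the Dnmt1 comparison, at -0.31 in 27G5 (arrays -0.09 and -0.53) and 0.54 in 27H10 (arrays 0.84 and 0.24), which gave 0.11 ± 0.60 (adjusted p = 0.705). Each clone gave only a single ratio, so the difference between the clones was not tested. In Dnmt3a,3b-labelled cells Mov10 gave 1.01, -0.34, 0.49 and -0.07, a mean of 0.27 ± 0.09 (adjusted p = 0.349).

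In the Dnmt3a,3b comparison, 8 of the 21 member probes, Mov10 among them, had a sign that followed the dye: 1 way on both arrays with the derived RNA in red, the other way on both arrays with it in green. This held for 3 probes in the Dnmt1 comparison and for 2 over wild type, and for 0 of the called probes in any comparison. Opposite signs pull the mean toward 0, so the 0 among called probes was nearly set in advance. All 4 arrays had the same sign at 18 of 21 probes over wild type, at 8 in the Dnmt1 comparison and at 7 in the Dnmt3a,3b comparison. These sign counts were not made over all probes, so they give nothing particular to the members.

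**Figure D4:**
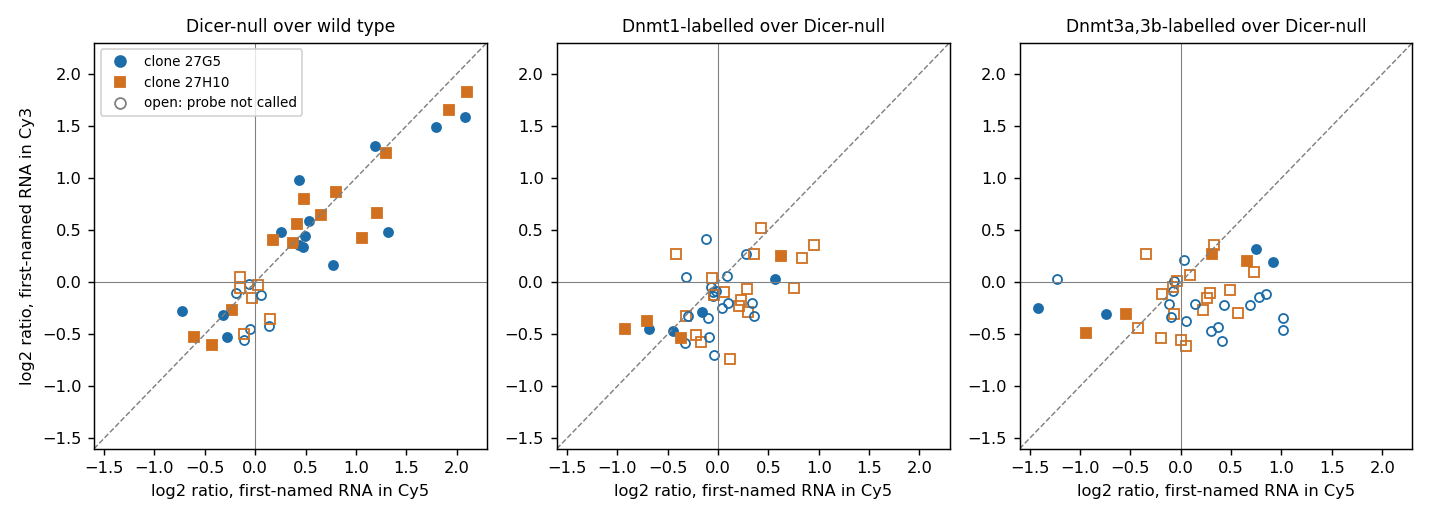
Log2 ratio of each member probe on the array with the first-named RNA in red (Cy5, horizontal) against the dye-swapped array (Cy3, vertical), 1 point per clone, filled where the probe was called; the dashed line marks equal values, and the downstream Dicer1 probe over wild type (-4.07) is beyond the axes. Over wild type the points follow the line, while over Dicer-null cells many open points lie in the lower right, with opposite signs on the 2 arrays.

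The Dnmt3a,3b and Dnmt1 conditions were never on the same array. Taken through their common parents, they differed at 0 of 21 member probes and at 0 of 28818 probes by limma (283 probes, none (0) of them a member, at an unadjusted p under 0.05). Member differences ran from -0.35 (Tnrc6a A_51_P509229, standard error 0.20) to 0.24 (Xpo5 A_51_P152191, standard error 0.13), with all adjusted p at 0.9998. This does not show that the conditions act alike on these genes.

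A further 85 genes of the pathway, which leave out the 9 members described above, were each read by their brightest probe in the same fit. Over wild type 12 were higher, 16 lower and 57 not called, beside 43.9% called of all 15540 genes (21.8% higher and 22.1% lower). Of 17 genes of nuclear processing and export, 3 rose and 2 fell; Adar, an RNA-editing enzyme that alters microRNA hairpins, rose by 0.78 ± 0.02, but its other probe gave -0.78. Zc3h7a was at 0.70 ± 0.01, Adarb1, a second editing enzyme, fell by -0.86 ± 0.35 and Smad4 by -0.51 ± 0.02. Drosha itself, Dgcr8's nuclease partner, was at 0.00 ± 0.01 (adjusted p = 0.971). Of 21 further genes of Argonautes and loading, which do not include Ago1 and Ago2, none (0) rose and 3 fell, with Eif6 lowest at -0.69 ± 0.14 and Ptges3, the p23 co-chaperone, at -0.59 ± 0.03. The Argonautes Ago3 (0.26 ± 0.22, adjusted p = 0.0845) and Ago4 (-0.02 ± 0.07, adjusted p = 0.837) did not pass.

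The paralogs of Tnrc6a were both higher over wild type. Tnrc6b was at 1.33 ± 0.24 (adjusted p = 0.00255), with its 6 probes between 0.27 and 1.33, and Tnrc6c at 0.91 ± 0.20 (adjusted p = 0.0025). They belong to 18 genes of GW182 paralogs, P-bodies and decapping, of which 3 rose and 5 fell, the lowest being Lsm1, a subunit of the ring that activates decapping (-0.87 ± 0.07), and Limd1 (-0.74 ± 0.04). Of 21 deadenylation genes, 6 rose and 4 fell. The deadenylase subunits Cnot6 and Cnot6l rose by 1.69 ± 0.14 and 1.43 ± 0.22, although 1 of the 3 Cnot6 probes was at 0.00. The poly(A)-binding protein Pabpc4 fell by -1.23 ± 0.04 and Cnot9 by -0.38 ± 0.05. Of 8 genes of the let-7 block and uridylation, 2 fell, Lin28a, which keeps let-7 precursors from being cut, by -3.24 ± 0.03 (adjusted p = 0.000103) and Eri1 by -0.44 ± 0.04. Median ratios of the 5 lists lay between -0.06 and 0.03, beside 0.00 over all genes.

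Over Dicer-null cells, 7 of the 85 genes were higher and 8 lower in Dnmt1-labelled cells, beside 24.4% called of all genes (14% higher and 10.4% lower), and 6 and 8 in Dnmt3a,3b-labelled cells, beside 22.1% (12.5% higher and 9.58% lower). Of nuclear processing and export, 0 of 17 were called in either. In the Argonaute list Fkbp4, a co-chaperone, rose (0.51 ± 0.16 and 0.51 ± 0.13), Fmr1, an RNA-binding partner of the silencing complex, fell (-0.37 ± 0.13 and -0.55 ± 0.19), and Ago3 fell in Dnmt3a,3b-labelled cells (-0.60 ± 0.01). Their weakest probes gave 0.24 and 0.38 (Fkbp4), -0.14 and -0.27 (Fmr1) and -0.13 (Ago3). Tnrc6c rose (0.60 ± 0.21 and 0.70 ± 0.15) as did the decapping cofactor Dcp1b (0.62 ± 0.14 and 0.64 ± 0.05), while Tnrc6b fell (-0.82 ± 0.48 and -0.89 ± 0.11). Of the 6 Tnrc6b probes, the weakest gave -0.16 and -0.18. Among deadenylation genes 2 rose in each, Paip1 (0.62 ± 0.05 and 0.56 ± 0.00) and Tob2 (0.47 ± 0.00 and 0.44 ± 0.04), and 5 and 3 fell, led by Cnot4 (-0.67 ± 0.17 and -0.95 ± 0.05) and Btg2 (-0.66 ± 0.49 and -0.68 ± 0.21). The weakest probes gave 0.03 and 0.04 for Paip1, 0.16 and 0.17 for Tob2, and -0.09 and -0.12 for Cnot4. For Btg2 they gave -0.65 and -0.68. Lin28a was lower again (-0.96 ± 0.15 and -0.68 ± 0.28), the trimming enzyme Parn rose (0.48 ± 0.19 and 0.46 ± 0.03), Tent2 rose in Dnmt1-labelled cells (0.40 ± 0.09) and the uridylating enzyme Tut4 fell in Dnmt3a,3b-labelled cells (-0.55 ± 0.09), although its 4 probes ranged from -0.55 to 0.24. The weaker Parn probe gave 0.15 and 0.23.

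**Figure D5:**
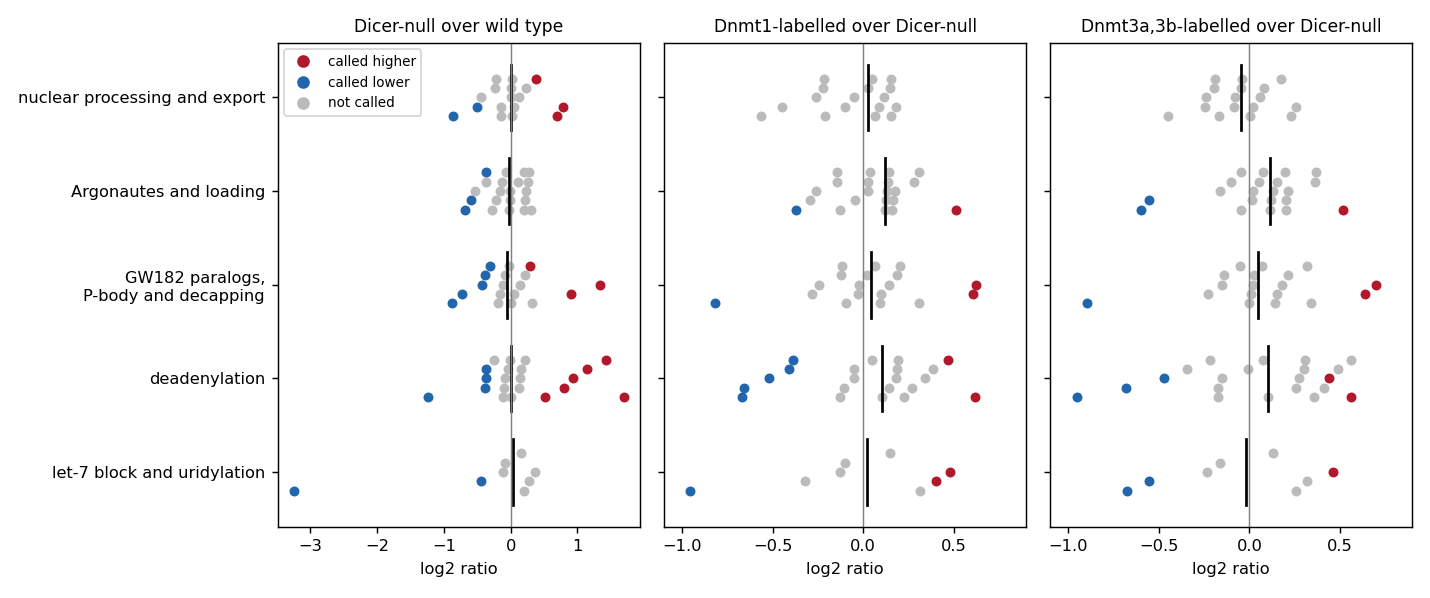
Log2 ratios of the brightest probe of each pathway gene in the 3 comparisons, 1 point per gene (spread vertically for legibility), red where called higher, blue where called lower and grey where not called; black bars are list medians, and the horizontal scale is wider in the left panel. Each list straddles 0, with Lin28a at -3.24 the farthest point.

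The member probes with the largest ratios over wild type were set beside all other genes by Euclidean distance over the 6 log2 ratios. The downstream Dicer1 probe is left out, since 4 of its 6 ratios came from channels at background. Mov10 lay nearest to Prr13 (distance 0.16), which had the same opposite-going clones in the Dnmt1 comparison, at -0.21 and 0.52, then Kat2b (0.45) and Pecam1 (0.53). For Ago1 A_52_P76402 the nearest were Pde8a (0.30), Mtarc2 (0.30) and Ptprj (0.33). These are likenesses over 6 ratios that share RNAs, given as a description.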

How the data were processed

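Per the file headers, the deposited files hold mean and background intensity per spot and a log10 ratio, from Agilent Feature Extraction 9.1.3.1 (arrays with wild-type RNA) or 9.5.1.1 (the others). The table deposited by the authors holds log2 ratios; its columns follow the scanner ratio turned to the first-named RNA, and how they were centred is not given in the sources used here. Intensities were corrected with normexp (offset 50) and loess with limma 3.58.1 (R 4.3.3, statmod 1.5.0), spots of a probe and dye-swapped arrays were averaged, and the 6 ratios were fitted with lmFit and eBayes (3 coefficients, 3 residual degrees of freedom). A probe was tested if present on all 12 arrays and well above background on both arrays of a pairing in the channel of at least 1 RNA; adjusted p is Benjamini-Hochberg over 28818 probes. In data simulated for Dicer-null over wild type on these 28818 probes, 67% of 100 changes of log2 1 and 97% of 100 of log2 2 were recovered, and 6 unchanged probes were called. The simulated noise was independent between ratios, whereas the real ratios share RNAs, and far fewer probes were changed than were called in the data. These figures therefore do not give the power or the error rate of the real fit. Probe positions are on build mm7; names follow the RefSeq table of GRCm38.p6 (of 41174 probes, 22951 by accession, 6659 by symbol, 3109 by synonym, 8455 unnamed). No per-sample column was left unused (0).

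The members and gene lists were chosen with earlier results of these data known. Named besides the members were the 2 highest and 2 lowest called genes of each pathway list. So were the 3 genes nearest to each of the 3 member probes with the largest ratios over wild type. Those of Dicer1 are not given, as its probe was at background in most ratios. Drosha, Ago3, Ago4 and the single cell type markers were named after their values were seen. Alternatives were no background correction, the scanner ratio, median centring, the authors' table, filters, blocks for replicate number, clone and slide, shared RNAs modelled, 1 probe per gene, leaving out each clone and, chosen after seeing the data, leaving out 1 array of the Dnmt3a,3b pair of 27G5. Leaving out a clone left 1 ratio in that comparison, so its spread was taken from the other comparisons only.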

Additional observations from a re-analysis of the deposited data

Results flagged for a closer look

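The 4 arrays of each of 63 probe and comparison groups were checked for an array far from the others, and 4 groups (6.35%) had one. The cutoff gives about 1 in 20 for independent, normally distributed values. Dye-swapped arrays that share RNAs are not independent, so that rate is no measure of chance here. Xpo5 supplied all 4. Over wild type, probe A_51_P152191 read -0.53 on the second 27G5 array and -0.28 to -0.23 on the others. In Dnmt1-labelled over Dicer-null cells, A_52_P201232 read 0.36 on the first 27H10 array beside 0.27 to 0.28, and A_52_P638867 read 0.047 on the second 27G5 array beside -0.33 to -0.32. In the Dnmt3a,3b comparison, A_52_P201232 read 0.75 on the first 27G5 array beside 0.27 to 0.31; this array belongs to the pair with the lowest dye-swap correlation.

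In 2 cases both arrays of 1 clone lay on one side of 0 and both arrays of the other on the opposite side; neither difference was tested, since each clone gave 1 ratio. Mov10 in the Dnmt1 comparison was -0.31 in 27G5 and 0.54 in 27H10, a difference of 0.84. The dim Dgcr8 probe A_52_P105381 in the Dnmt3a,3b comparison was -0.16 and 0.082, a difference of 0.24.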

How the results depend on the processing

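Called member probes numbered 15, 4 and 4 (over wild type, Dnmt1 and Dnmt3a,3b comparison), and all called probes 11461, 6580 and 6331. With shared RNAs modelled these were 5, 0 and 1, and 2585, 707 and 589. On 1 clone alone, 5 to 9, 1 to 5 and 0 to 0 member probes and 4242 to 4702, 3407 to 7150 and 23 to 351 of all probes were called; these fits have fewer samples. In the Dnmt1 comparison the scanner ratio and the authors' table each called 2 member probes. The array numbers in the labels mark the dye orientation and pair no samples; the replicate block on them over 12 arrays called 15, 8 and 6 member probes, the second over 1.5 times its main count. No probe over wild type changed sign. Probes that did, none of them called, were Tnrc6a A_51_P311379 (0.015) and Mov10 (-0.0096) in the Dnmt1 comparison and Ago1 A_52_P313035 (0.066) in the Dnmt3a,3b comparison under median centring; the downstream Dicer1 probe in the Dnmt3a,3b comparison by the scanner ratio (0) and the authors' table (0.023); and, without the first array of the 27G5 Dnmt3a,3b pair (added after seeing the data; 6 member probes called), Xpo5 A_52_P209328 (-0.044) and Tnrc6a A_51_P311379 (-0.016). On 1 clone, signs turned in the Dnmt1 comparison for Xpo5 A_52_P209328 (-0.22 to 0.0041), Tnrc6a A_51_P509229 (-0.075 to 0.15) and A_51_P311379 (-0.049 to 0.030), Mov10 (-0.31 to 0.54) and Ago1 A_52_P76402 (-0.46 to 0.11), and in the Dnmt3a,3b comparison for Dgcr8 A_52_P105381 (-0.16 to 0.082) and Xpo5 A_52_P209328 (-0.023 to 0.23). The cause of these changes was not tested. Of 6 members called by their brightest probe over wild type, 6 were called with 1 probe per gene.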
